A study of Mus musculus with 20 samples.

Results

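The integrated stress response is described here through 10 genes: Atf4, Atf5, Ddit3, Ddit4, Trib3, Chac1, Asns, Sesn2, Psat1 and Phgdh. They were taken by name from the deposited count file, and all 10 were found among its 24885 genes. All 10 passed the filter on low counts, which kept 18918 genes for testing. The libraries were made from mouse plantaris tendons, in a study of tendon growth with and without targeting of Igf1r, the IGF1 receptor gene, in cells that express Scx. Every mouse carried IGF1Rflox/flox alleles, and the 20 libraries fall into 5 groups of 4. WT day 0 mice (ScxCreERT2-/-) had no tamoxifen and no growth stimulus. WT day 7 and WT day 14 mice (ScxCreERT2-/-) and KO day 7 and KO day 14 mice (ScxCreERT2+/+) had tamoxifen and the growth stimulus. Any change from day 0 therefore joins stimulus, tamoxifen and time, and a KO group without the stimulus was not analysed here. The labels used here give no age, and nothing in them ties each replicate to its own animal. The p-values thus reflect library-to-library spread, part of which may be technical.

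The integrated stress response starts when kinases that sense amino acid shortage, unfolded protein, viral RNA or haem deficiency phosphorylate the translation factor eIF2alpha. General translation then slows while the mRNAs of ATF4, ATF5 and CHOP (the protein of Ddit3) are translated more. Part of the control of these factors thus lies in translation, which RNA counts do not measure. ATF4 with its partners switches on genes for amino acid synthesis and uptake, tRNA charging, feedback and growth restraint. In tendon, a tissue of tenocytes that secrete collagen, such genes bear on the supply of glycine, serine and proline for matrix protein.

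ATF4 binds with C/EBP family partners to an element searched here as TGATGNAA on both strands. RefSeq promoter windows (GRCm38.p6, 250 bases before to 50 after each annotated start) were present for all 10 genes, in 12 windows. Matches were found in 3 of them, against 3.97% of 32817 windows in the whole table. The matches are shown because they belong to Asns, Chac1 and Trib3, 3 genes whose RNA took different courses. Each stretch reads 5′ to 3′ on the strand of its gene, with the match in capitals.
Asns, chr6:7693215-7693242, minus strand: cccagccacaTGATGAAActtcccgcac
Chac1, chr2:119351039-119351066, plus strand: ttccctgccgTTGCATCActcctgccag
Trib3, chr2:152344029-152344056, minus strand: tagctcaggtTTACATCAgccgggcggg
The Asns match begins 23 bases before the start. The Chac1 match lies on the opposite strand and begins 193 bases before the start, and it is the only one that also holds the stricter TGATGCAA, which overlaps the first motif and occurs in 0.896% of all windows. The Trib3 match, also on the opposite strand, begins 14 bases after the start. These are RefSeq starts, and the gene coordinates given below come from GENCODE and differ. By the latter, the Asns match lies inside the gene and the Trib3 match before its start. The ER stress element (ERSE, 0.119% of windows) and the E-box CACGTG (7.15%) had no match in the 12 windows. A match is a description of letters and not a binding site.

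Library totals lay between 32.3 and 63.5 M counts. Values are CPM, counts of a gene per 1 M counts of its library after TMM scaling, and a gene is called when its Benjamini-Hochberg adjusted p over all tested genes is below 0.05 in edgeR's quasi-likelihood test. Log2 changes carry the SE of that fit, and values per library are in the order of replicates 1 to 4. Igf1r counts were not lower in KO than in WT, at 51.3 ± 2.81 against 49.1 ± 2.17 CPM at day 7 and 53.1 ± 5 against 45.3 ± 3.63 at day 14 (SD, n = 4). Whole-gene counts do not measure the deleted part alone, so they do not check the KO label. Scx, at which CreERT2 is placed, was read at 736 ± 281 CPM in KO against 50.5 ± 5.52 in WT at day 7, and the genotypes differ in ScxCreERT2 (+/+ against -/-) and not in the flox alleles. Tenocyte markers were present in every group, and the 15 skeletal muscle fibre markers summed to 28200 to 71400 CPM in WT day 0 and to 236 to 1860 CPM in WT day 7. Other markers moved with the day 7 changes of the members too. From WT day 0 to WT day 7, 12 of 12 macrophage markers rose (sums of 2180 to 2510 against 4560 to 7940 CPM), as did 6 of 6 tested neutrophil markers (5.93 to 7.37 against 78 to 154). All 8 adipocyte markers fell (1510 to 2430 against 195 to 445 CPM), as did all 6 Schwann cell markers (75.3 to 90.8 against 28.1 to 33.3). Of 10 regenerating muscle markers, 7 rose and 0 fell (14 to 35.5 against 122 to 414 CPM). Of 8 endothelial markers, 0 rose and 5 fell (489 to 611 against 331 to 469 CPM). KO day 7 replicate 2 had a keratinocyte marker sum of 713 CPM, against 4.78 to 14.3 in the rest of its group and 4.95 to 12 in WT day 7. Of 6 keratinocyte markers, 4 were called higher in KO day 7 than in WT day 7. The part of all these cells in the members' changes was not tested. In such tissue libraries, fewer cells of a type and less RNA per cell cannot be told apart.

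The members moved in opposite directions after the stimulus. From WT day 0 to WT day 7, 5 of 10 rose (Psat1, Asns, Ddit4, Phgdh and Sesn2), 3 fell (Atf5, Chac1 and Ddit3), and Atf4 and Trib3 did not pass the test. Of all tested genes, 64.1% were called, 32.3% higher and 31.8% lower, so a call rate of 8 in 10 has a high background. The median log2 change of the members was 0.18, against 0.02 over all genes. In 9 of 10 members the libraries of both groups did not overlap, as in 60.6% of all genes.

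**Figure D1:**
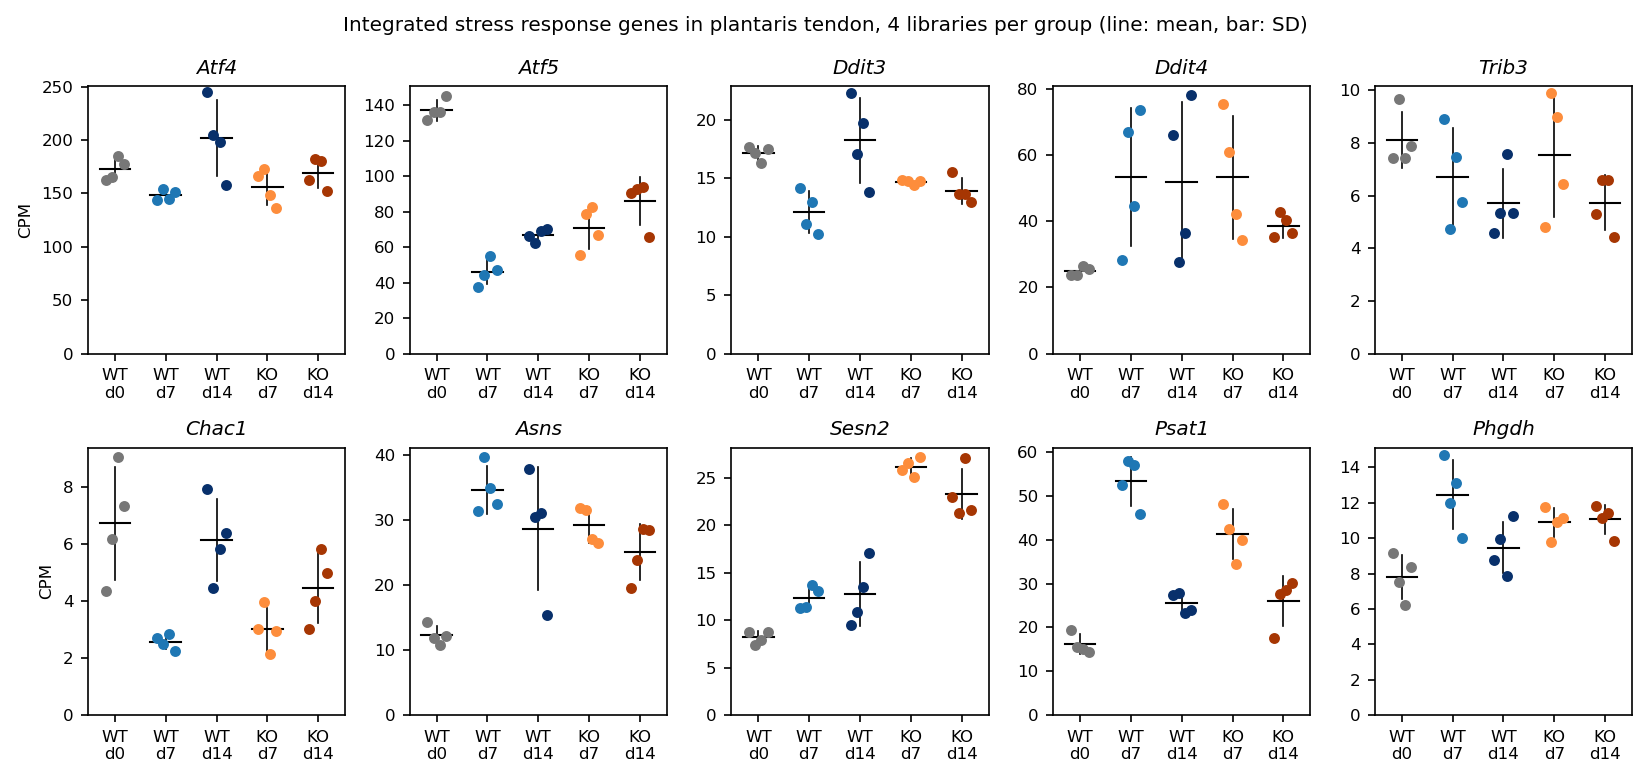
CPM (y axes) of the 10 genes in each of the 20 libraries, by group (x axes). Points are libraries, horizontal lines are group means and vertical bars are the SD (n = 4). Sesn2 is highest in both KO groups, Atf5 is highest in WT day 0, and Psat1 is highest in WT day 7.

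Among the transcription factors, Atf4 (ENSMUSG00000042406, chromosome 15, 80255184 to 80257541, plus strand, GRCm38) encodes the main effector of the response. Its levels spanned 162 to 185 CPM in WT day 0, 143 to 154 in WT day 7, 136 to 172 in KO day 7, 158 to 245 in WT day 14 and 152 to 182 in KO day 14. No group of Atf4 was clear of its neighbour in the order of means, which ran from 201 ± 35.7 CPM in WT day 14 to 148 ± 5.01 in WT day 7 (SD, n = 4). WT day 7 lay below WT day 0 in all libraries, yet the log2 change of -0.22 ± 0.11 did not pass (edgeR adjusted p = 0.0773). It passed when only the compared groups were fitted (-0.23, edgeR adjusted p = 0.0147). Atf4 in WT day 14 against WT day 0 did not pass either (0.22 ± 0.11, edgeR adjusted p = 0.0826), but did without WT day 14 replicate 4 (0.33, 0.00661).

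Atf5 (chromosome 7, 44812256 to 44816658, minus strand) encodes a related factor that is also induced at translation. It had 131, 136, 136 and 145 CPM in WT day 0 and 37.7, 44.4, 54.9 and 47 CPM in WT day 7. The WT day 14 libraries held 66.2, 62, 69 and 70 CPM. The KO libraries held 55.6, 78.4, 82.6 and 67.1 CPM at day 7 and 90.7, 92.8, 94 and 65.6 CPM at day 14. Every stimulated library lay below every WT day 0 library, and WT day 7 lay below all other groups. Atf5 fell by 1.58 ± 0.13 on the log2 scale from WT day 0 to WT day 7 (edgeR adjusted p = 4.21e-09) and by 1.04 ± 0.13 to WT day 14 (1.44e-06). It rose again by 0.54 ± 0.13 from WT day 7 to WT day 14 (edgeR adjusted p = 0.0034). Exons of Atf5 share 82 bases each with Il4i1 and Nup62 on the opposite strand, and as no strand setting is given in the sources used here, reads there cannot be told apart.

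Ddit3 (chromosome 10, 127290774 to 127296288, plus strand) encodes CHOP, the factor linked to stress-induced cell death. It had 17.7, 17.2, 16.3 and 17.5 CPM in WT day 0, 14.2, 11.1, 12.9 and 10.2 in WT day 7, and 22.3, 17, 19.7 and 13.8 in WT day 14. WT day 7 lay below WT day 0 throughout, while WT day 14 overlapped both. Ddit3 fell by 0.50 ± 0.12 on the log2 scale from WT day 0 to WT day 7 (edgeR adjusted p = 0.00118). Its rise of 0.59 ± 0.12 from WT day 7 to WT day 14 passed too (edgeR adjusted p = 0.00115). Its exons share 68 bases with Mars, a tRNA synthetase gene, and 13 with Gm4189, both on the opposite strand, under the same strand limit. They also share 105 bases with another Ddit3 entry on the same strand. That entry is not in the count file, and how reads there were counted is not known.

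Psat1 and Phgdh encode enzymes of the serine pathway, Phgdh the first step and Psat1 the next, and Asns makes asparagine. Psat1 (chromosome 19, 15904678 to 15947337, minus strand) had 19.5, 15.6, 15.2 and 14.5 CPM in WT day 0. It had 52.4, 57.9, 57 and 45.9 CPM in WT day 7 and 27.3, 27.9, 23.2 and 24 in WT day 14. These 3 groups did not overlap, with WT day 7 highest and WT day 0 lowest. Psat1 rose by 1.72 ± 0.15 on the log2 scale to day 7 (edgeR adjusted p = 6.29e-09). It then fell by 1.06 ± 0.14 to day 14 (edgeR adjusted p = 3.07e-05), which was still 0.66 ± 0.14 above day 0 (0.00067).

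Asns (chromosome 6, 7675169 to 7693254, minus strand) had 14.3, 11.8, 10.8 and 12.1 CPM in WT day 0. It had 31.4, 39.8, 34.9 and 32.5 CPM in WT day 7 and 37.9, 30.5, 31.1 and 15.5 in WT day 14. All stimulated WT libraries were above day 0, and the lone low library at day 14 was replicate 4. Asns rose 2.83-fold to WT day 7 (SE 0.19 on the log2 scale, edgeR adjusted p = 1.7e-06). To WT day 14 it rose by 1.23 ± 0.19 on the log2 scale (edgeR adjusted p = 2.77e-05). Between these days the log2 change was -0.27 ± 0.19 and did not pass (edgeR adjusted p = 0.3).

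Phgdh (chromosome 3, 98313170 to 98339990, minus strand) moved least of the 3 enzymes, from 7.81 ± 1.25 CPM in WT day 0 to 12.5 ± 1.96 in WT day 7 and 9.47 ± 1.45 in WT day 14 (SD, n = 4). Of the WT groups, day 7 was clear of day 0 and day 14 was not, and the rise to day 7 was 0.68 ± 0.13 on the log2 scale (edgeR adjusted p = 0.000207). Its fall of 0.40 ± 0.13 to WT day 14 (edgeR adjusted p = 0.0301) was lost when only the compared groups were fitted (0.0644). It was also lost without any 1 of WT day 7 replicates 1, 2 and 3 or WT day 14 replicates 1 and 3 (edgeR adjusted p = 0.0509 to 0.104), and with the muscle score as a covariate, where the change was -0.40 (0.186). Against WT day 0, Phgdh in WT day 14 (0.28 ± 0.13, edgeR adjusted p = 0.0876) passed only without WT day 0 replicate 1 (0.36, 0.0399) or without WT day 14 replicate 3 (0.36, 0.0403). A pseudogene, Phgdh-ps1, is also in the count file, so the split of shared reads is uncertain. The cycling cell markers summed to 45.2 to 62 CPM in WT day 0, 492 to 690 in WT day 7 and 134 to 317 in WT day 14. This sum was highest at day 7, as were the mean levels of Psat1, Asns and Phgdh, and its part in those levels was not tested.

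Ddit4 and Sesn2 encode stress-induced brakes on the growth kinase complex mTORC1. Ddit4 (chromosome 10, 59949669 to 59951834, minus strand) had 23.8, 23.8, 26.4 and 25.7 CPM in WT day 0. It had 28.3, 67, 44.7 and 73.7 CPM in WT day 7 and 65.9, 27.5, 36.3 and 78.1 in WT day 14. Every stimulated library exceeded every day 0 library, but the spread was wide. Over all 5 groups the within-group SD of Ddit4 was 0.486 on the log2 scale, the highest of the 10 members, and that of Atf4 was the lowest at 0.154. Ddit4 rose by 1.10 ± 0.33 to WT day 7 (edgeR adjusted p = 0.00718) and by 1.06 ± 0.33 to WT day 14 (0.0114) on the log2 scale.

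Sesn2 (chromosome 4, 132492032 to 132510501, minus strand) encodes a leucine sensor. It had 8.77, 7.42, 7.85 and 8.76 CPM in WT day 0, 11.2, 11.4, 13.7 and 13.1 in WT day 7, and 9.51, 10.8, 13.5 and 17.1 in WT day 14. Both stimulated WT groups lay above day 0 and overlapped each other. Sesn2 rose by 0.59 ± 0.14 on the log2 scale to WT day 7 (edgeR adjusted p = 0.000969) and by 0.63 ± 0.14 to WT day 14 (0.000726).

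Trib3 and Chac1 are known as targets of ATF4 and CHOP. Trib3 (chromosome 2, 152337422 to 152344032, minus strand), a pseudokinase that feeds back on the response, stayed between 4.44 and 9.89 CPM in all 20 libraries and passed no comparison in the fit to all libraries. For WT day 14 against WT day 0 the log2 change was -0.51 ± 0.23 (edgeR adjusted p = 0.0654). It passed by DESeq2 (adjusted p = 0.0441), and in edgeR with the replicate block (adjusted p = 0.0489), the muscle score (0.0314), the compared groups alone (0.0252) or without WT day 14 replicate 3 (0.025). For KO day 14 against WT day 0 the change was -0.50 ± 0.23 (edgeR adjusted p = 0.0729) and passed with the muscle score (0.0346) or the compared groups alone (0.0181). Its neighbouring groups overlapped throughout the order of means, from 8.1 ± 1.06 CPM in WT day 0 to 5.71 ± 1.31 in WT day 14 (SD, n = 4). Chac1 (chromosome 2, 119351229 to 119354381, plus strand), an enzyme that degrades glutathione, had 4.34, 6.16, 9.04 and 7.34 CPM in WT day 0. It had 2.7, 2.49, 2.83 and 2.26 CPM in WT day 7 and 7.94, 4.47, 5.81 and 6.37 in WT day 14. WT day 7 was lowest and clear of both other WT groups. Chac1 fell by 1.39 ± 0.24 on the log2 scale to day 7 (edgeR adjusted p = 4.28e-05) and rose by 1.26 ± 0.24 from day 7 to day 14 (0.000609).

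**Figure D2:**
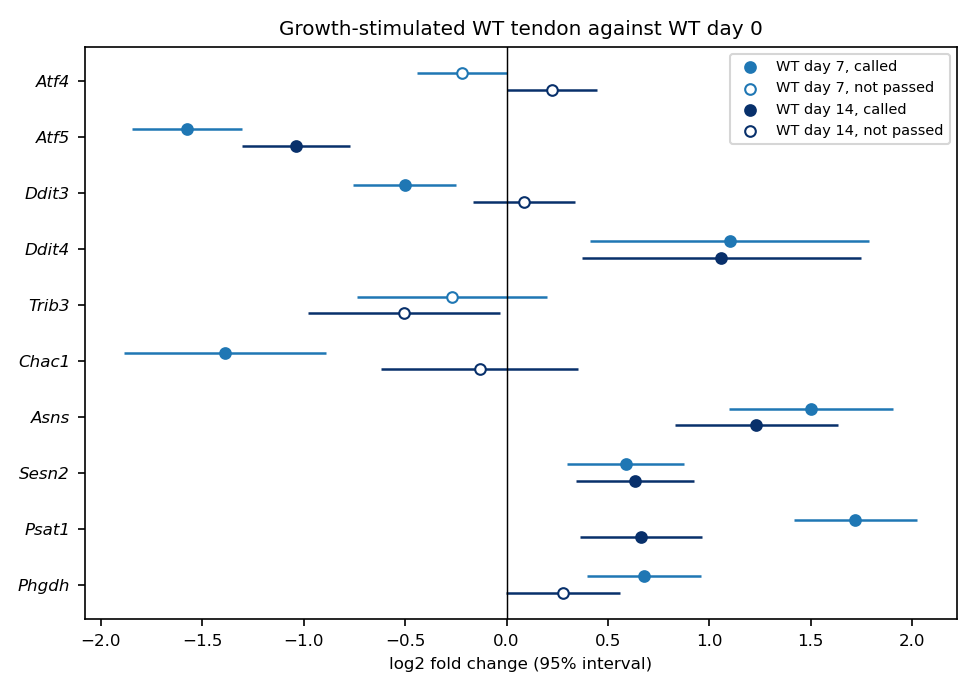
Log2 change of each of the 10 genes (rows) from WT day 0 to each later WT day, 7 and 14, with 95% intervals (bars). Filled points passed the test. Psat1 and Asns lie farthest to the right at day 7 and Atf5 and Chac1 farthest to the left.

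Against WT day 0, WT day 14 had 4 members higher (Asns, Ddit4, Psat1 and Sesn2) and 1 lower (Atf5), where 54.3% of all genes were called, 28.0% higher and 26.2% lower. The groups did not overlap for 5 members and for 46.1% of all genes. From WT day 7 to WT day 14, 4 rose (Chac1, Ddit3, Atf5 and Atf4) and 2 fell (Psat1 and Phgdh), where 30.4% of all genes were called, 16.0% higher and 14.3% lower. The groups did not overlap for 4 members and for 25.6% of all genes. The rise of Atf4 was 0.44 ± 0.11 on the log2 scale (edgeR adjusted p = 0.00389). The 3 transcription factors thus all rose between the days. Both day 0 comparisons share the WT day 0 libraries, and the last shares WT day 7 with the first. With the muscle marker score as a covariate, 4 rather than 8 members passed from WT day 0 to WT day 7, namely those other than Ddit3, Ddit4, Sesn2 and Phgdh. The log2 changes of these 4 with the covariate were -0.63 for Ddit3 (without it -0.50), 1.73 for Ddit4 (1.10), 0.68 for Phgdh (0.68) and 0.47 for Sesn2 (0.59). The muscle fibre sums of WT day 0 and WT day 7 did not overlap, so this fit cannot separate muscle content from the day. The cause of the lost calls was not tested.

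Compared per kilobase of exon, Atf4 and Atf5 were the most abundant members in WT day 0, at 73.2 ± 4.55 and 68.8 ± 2.96 CPM per kb (SD, n = 4). In WT day 7 the levels were 62.9 ± 2.12 and 23.1 ± 3.55 CPM per kb, so that Atf5 no longer lay near Atf4. Sesn2 was lowest in WT day 0, at 2.36 ± 0.195 CPM per kb. In KO day 7 it reached 7.52 ± 0.257 CPM per kb, above Trib3, Chac1 and Phgdh.

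KO differed from WT mainly in Sesn2. KO day 7 libraries had 25.8, 26.5, 25.1 and 27.2 CPM of Sesn2 and KO day 14 libraries 23, 21.3, 27 and 21.6. Every KO library lay above every WT library at either day. At day 7 Sesn2 was 2.12-fold higher in KO, a log2 difference of 1.09 ± 0.14 (edgeR adjusted p = 6.63e-05). At day 14 it was 1.83-fold higher, a difference of 0.87 ± 0.14 (edgeR adjusted p = 0.00145). The day 7 call held under every alternative that was run, whereas the day 14 call was lost when only the 8 compared libraries were fitted (edgeR adjusted p = 0.0695). The tenocyte marker sum was also higher in KO day 7, at 85200 to 105000 CPM against 45300 to 56400 in WT day 7, and the muscle fibre sum too, at 5330 to 13300 against 236 to 1860. With the muscle score as a covariate the day 7 difference in Sesn2 was 1.15. As the muscle sums of these groups did not overlap, that fit cannot separate muscle content from genotype. The part of the muscle markers and of the tenocyte markers, which include Scx, was not tested.

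Atf5 was the other member called at day 7, 1.54-fold higher in KO (log2 difference 0.62 ± 0.13, edgeR adjusted p = 0.00372), with no overlap between the groups. At day 14 its difference was 0.36 ± 0.13 and did not pass (edgeR adjusted p = 0.155), except without KO day 14 replicate 4 (0.47, edgeR adjusted p = 0.0431). Thus 2 of 10 members were called at day 7, both higher, where 14.8% of all genes were called, 9.39% higher and 5.42% lower. The day 7 groups did not overlap for 3 members (Sesn2, Atf5 and Ddit3) and for 24.4% of all genes. At day 14 it was 1 of 10 members, higher, where 1.78% of all genes were called, 1.06% higher and 0.719% lower. The day 14 groups did not overlap for that 1 member, Sesn2, and for 6.13% of all genes. The median over the members was 0.12 at day 7 and -0.09 at day 14, against -0.01 over all genes at both days.

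Ddit3 had 14.8, 14.8, 14.4 and 14.7 CPM in KO day 7, all above the WT day 7 libraries, and 15.5, 13.6, 13.6 and 13 in KO day 14, which overlapped WT day 14. Neither difference passed, at 0.28 ± 0.12 (edgeR adjusted p = 0.125) and -0.39 ± 0.12 (0.112) on the log2 scale. Without WT day 14 replicate 4 the day 14 difference of Ddit3 passed, at -0.50 (edgeR adjusted p = 0.0105), and so did that of Atf4, at -0.35 (0.0274). The change in the KO effect between days was -0.66 ± 0.17 for Ddit3 (edgeR adjusted p = 0.173, DESeq2 0.038). By edgeR this interaction called 0 members and 0 genes, while 3 members and 10.8% of all genes had an unadjusted p below 0.05. DESeq2 called 190 genes, Ddit3 the only member among them, and limma-voom called 0. The interaction was -0.22 ± 0.19 for Sesn2 (edgeR adjusted p = 0.737), so a change of its KO effect between days was not shown.

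The other members did not pass between KO and WT at either day in the fit to all libraries. For Psat1 the day 7 libraries held 48.3, 42.5, 34.4 and 40 CPM in KO, partly below WT, with a log2 difference of -0.37 ± 0.14 (edgeR adjusted p = 0.083). It passed as lower in KO when only the compared groups were fitted (edgeR adjusted p = 0.0408). Asns differed by -0.24 ± 0.19 at day 7 and -0.19 ± 0.19 at day 14, and Phgdh by -0.19 ± 0.13 and 0.22 ± 0.13. Ddit4 differed by -0.01 ± 0.32 and -0.43 ± 0.32, the widest errors of the set, and Chac1 by 0.23 ± 0.24 and -0.46 ± 0.23. Atf4 differed by 0.07 ± 0.11 and -0.25 ± 0.11, and Trib3 by 0.16 ± 0.22 and 0.00 ± 0.23.

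**Figure D3:**
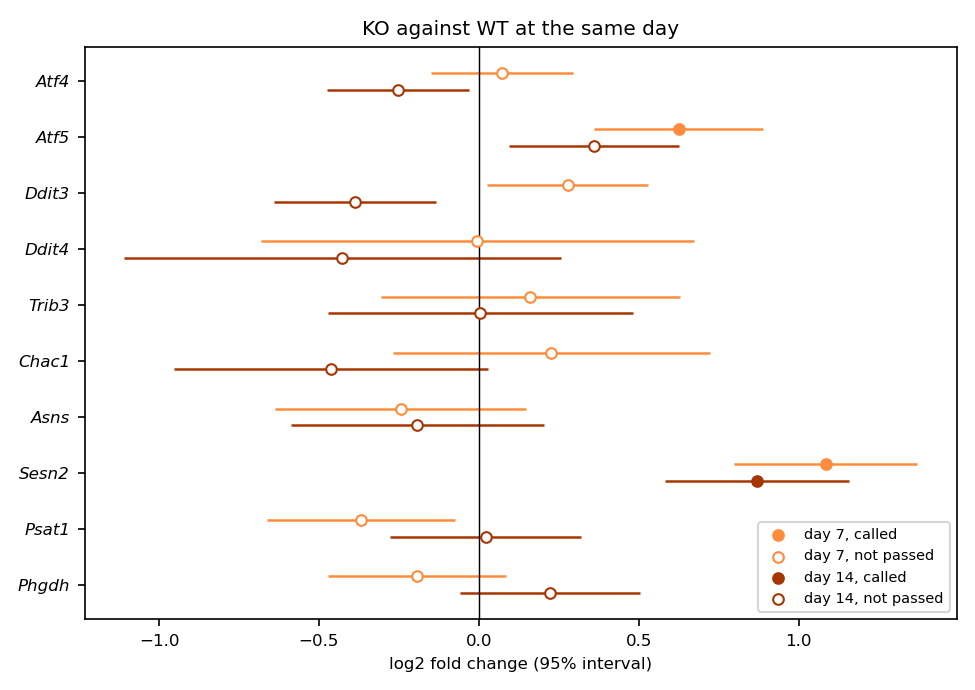
Log2 difference between KO and WT of each of the 10 genes (rows) at day 7 and day 14, with 95% intervals (bars). Filled points passed the test: Sesn2 at both days and Atf5 at day 7.

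Set against WT day 0, which also serves the WT comparisons, KO day 7 had 5 members higher and 2 lower, where 57.7% of all genes were called, 29.4% higher and 28.3% lower. The groups did not overlap for 8 members and for 56.1% of all genes. Sesn2 led at 1.67 ± 0.14, before Psat1 at 1.35 ± 0.14, Asns at 1.26 ± 0.19, Ddit4 at 1.09 ± 0.33 and Phgdh at 0.48 ± 0.13, while Chac1 fell by 1.16 ± 0.24 and Atf5 by 0.95 ± 0.13 on the log2 scale. KO day 14 had 4 higher and 3 lower, where 50.3% of all genes were called, 25.4% higher and 25.0% lower. The groups did not overlap for 7 members and for 46.6% of all genes. Its calls of Ddit3 (log2 -0.30, edgeR adjusted p = 0.0452) and Chac1 (-0.59, 0.0413) were both lost with the muscle score as a covariate (0.0708 and 0.103). With it the log2 changes were -0.35 and -0.62, and the cause of the losses was not tested. The Ddit3 call was lost by limma-voom (adjusted p = 0.0543) and with no filter on low counts (edgeR adjusted p = 0.0604). The Chac1 call was lost with the compared groups alone (edgeR adjusted p = 0.0732) and with the replicate block (0.0534). With the compared groups alone, Ddit3 at KO day 7 (-0.22, edgeR adjusted p = 0.0129) and Ddit4 at KO day 14 (0.64, 0.000146) gained a call against WT day 0. The Ddit3 call was also lost without any 1 of the WT day 0 libraries or KO day 14 replicates 2, 3 and 4 (edgeR adjusted p = 0.0548 to 0.112). The Chac1 call was lost without any 1 of WT day 0 replicates 2, 3 and 4 or KO day 14 replicates 1 and 2 (edgeR adjusted p = 0.0506 to 0.167). From KO day 7 to KO day 14, Psat1 was the 1 member that passed and the 1 whose groups did not overlap. Of all genes 15.7% were called, 7.09% higher and 8.57% lower, and 20.6% did not overlap. Psat1 fell by 0.67 ± 0.14 on the log2 scale (edgeR adjusted p = 0.00412).

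Other genes of the pathway were read from lists chosen with earlier results known, and are given from WT day 0 to WT day 7, where 32.3% of all genes were higher and 31.8% lower. Of 20 cytosolic tRNA synthetases, which charge tRNAs with amino acids, 15 rose and 0 fell, with a median log2 change of 0.33. Gars, for glycine, rose by 1.02 and Rars, for arginine, by 0.78. Of 20 ER chaperones and IRE1 or ATF6 targets, 16 rose and 1 fell (median 0.70), among them the disulfide isomerases Pdia6 at 1.49 and Pdia4 at 1.45, while Dnajb9 fell by 0.40 on the log2 scale. Both lists stood above the all-gene median of 0.02.

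Among 14 enzymes of serine, glycine and folate metabolism, 8 rose and 2 fell (median 0.35), with Tyms, which makes thymidylate for DNA, at 2.40 and the mitochondrial folate enzymes Aldh1l2 at 1.59 and Mthfd1l at 1.28. Of 11 amino acid transporters, 6 rose and 3 fell (median 0.41), led by the cystine carrier Slc7a11 at 3.35. The 18 enzymes of proline and other amino acids were mixed, with 5 higher and 7 lower (median -0.03). The proline synthesis genes Pycr1 and Aldh18a1 rose by 1.82 and 1.75, and the alanine transaminase genes Gpt and Gpt2 fell by 2.27 and 1.71 on the log2 scale. Of 23 other ATF4 and CHOP targets, 9 rose and 11 fell (median -0.20), with the death receptor gene Tnfrsf10b at 1.42 and Vldlr, a lipoprotein receptor gene, at -3.90.

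Upstream, 7 of 16 eIF2alpha kinase, phosphatase and eIF2 factor genes rose and 2 fell (median 0.16), with Eif2ak2, the kinase that senses double-stranded RNA, at 1.40. Of 18 partner and related factors, 4 rose and 3 fell (median 0.16), among them Jdp2 at 0.93 and Nfe2l1 at -1.57. Of 11 mTORC1 brake genes, 2 rose and 4 fell (median -0.21), with Sesn3 at 0.54 and Ddit4l, a relative of Ddit4, at -3.18. The counts of the partner factors and the mTORC1 brakes lie near or below the shares over all genes, 32.3% higher and 31.8% lower. Of genes known to respond to p53, 2 of 10 were higher and 4 lower, of hypoxia genes 2 of 12 and 6, and of glucocorticoid genes 1 of 10 and 5.

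From WT day 7 to WT day 14, 16.0% of all genes were higher and 14.3% lower. Of the 20 synthetases 0 were higher and 5 lower, of the 14 serine and folate enzymes 1 and 6, and of the 20 chaperones 1 and 7. The 23 other ATF4 and CHOP targets had 9 higher and 2 lower, among them Nupr1 at 1.72 and Stc2 at 1.49 on the log2 scale. Of the 10 glucocorticoid genes 4 were higher and 0 lower, and of the 10 p53 genes 3 and 1. The 18 partner factors had 3 higher and 4 lower, the 18 proline list enzymes 3 and 4, and the 11 transporters 1 and 2. For the 12 hypoxia genes the counts were 1 and 0, for the 16 eIF2alpha list genes 0 and 1, and for the 11 mTORC1 brakes 0 and 2. Between KO and WT at day 7, 9.39% of all genes were higher and 5.42% lower. Of the 20 chaperones 0 were higher and 4 lower, including Hsp90b1 at -0.39 and Pdia6 at -0.36, and of the 20 synthetases 0 and 1. Of the 23 other ATF4 and CHOP targets 2 were higher, Bbc3 at 0.69 and Stc2 at 0.51, and 1 lower, Fgf21 at -1.77. Of the 18 partner factors 3 were higher and 2 lower. Among the 10 p53 genes 1 was higher, Phlda3 at 0.82, and among the 11 mTORC1 brakes 2, Akt1s1 at 0.39 and Castor1 at 0.40. Of the 10 glucocorticoid genes 2 were lower, and of the 12 hypoxia genes 1 was higher. The serine and folate list had 0 higher and 1 lower, the eIF2alpha list 0 and 1, and the transporters and the proline list 0 in either direction. At day 14, where 1.06% of all genes were higher and 0.719% lower, the glucocorticoid list had 1 call, Sgk1 at -0.92, and the other 11 lists 0.

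**Figure D4:**
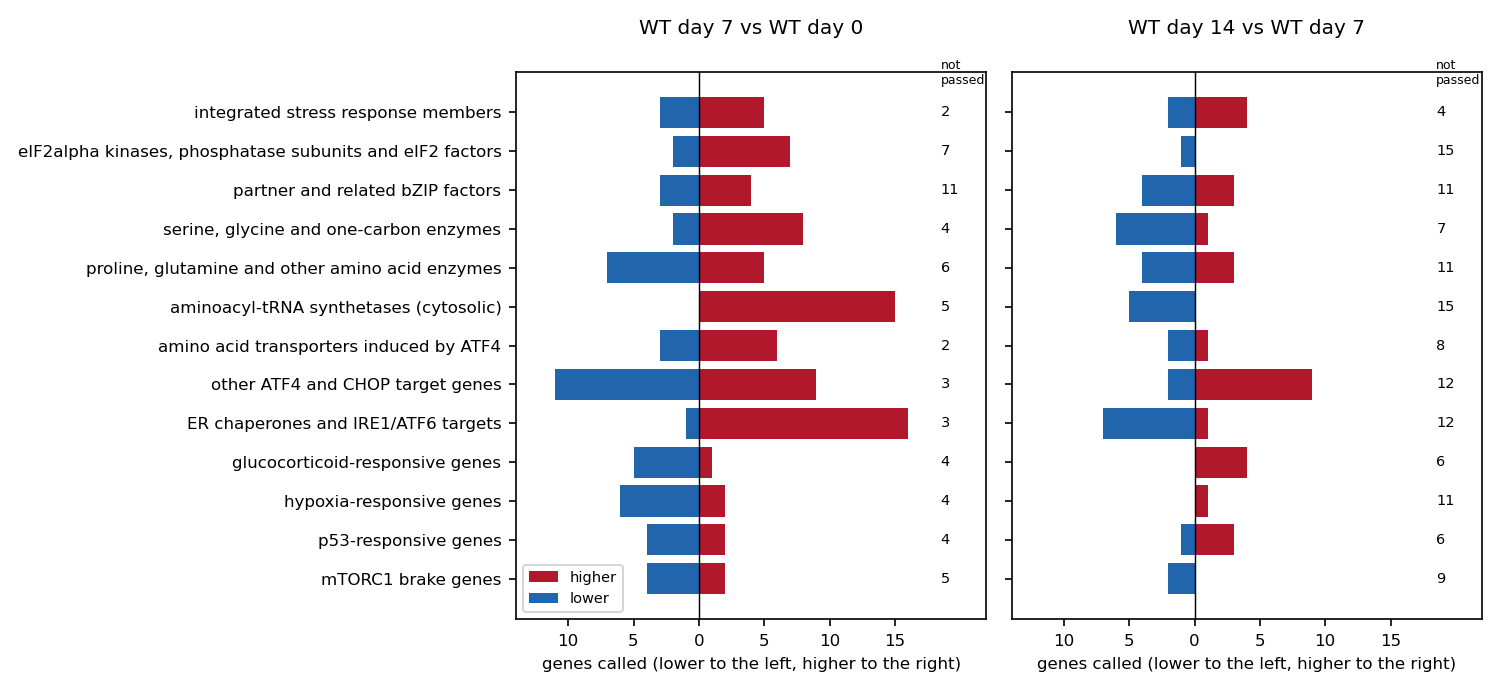
Number of genes of each pathway list called higher (to the right) and lower (to the left) from WT day 0 to WT day 7 and from WT day 7 to WT day 14. The tRNA synthetases (15 higher, 0 lower) and the ER chaperones (16 higher, 1 lower) are the most one-sided lists at day 7.

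For each member, the genes with the most similar profile were sought by the root mean square difference of centred log2 CPM over the 20 libraries, among 11148 genes with a mean of at least 5 CPM. For Psat1 they were Cdc7 (0.164), Cenpl (0.179) and Rbl1 (0.182), against its own spread of 0.629. For Asns they were Pdia4 (0.18), Pbdc1 (0.184) and Serp1 (0.188), against 0.58. For Sesn2 they were Mrgprf (0.214), Wdr6 (0.264) and Ttyh3 (0.264), against 0.647, and for Atf5 Tns2 (0.144), Thra (0.149) and Palm (0.159), against 0.544. Ddit4 and Chac1 had no gene closer than 0.322 (Cebpb) and 0.344 (Mgll). No member was among the 3 genes nearest to another member. Atf4 had rank 45 in nearness to Ddit3 (0.186), and Asns rank 376 in nearness to Psat1 (0.352). All other ranked pairs of members came later. Chac1 could not be found for another member, as its mean lay below 5 CPM. Serp1, for example, had 116 ± 8.56 CPM in WT day 0 and 318 ± 25.8 in WT day 7 (SD, n = 4), and Mrgprf had 59.2 ± 10.5 in WT day 7 and 104 ± 10.8 in KO day 7. These likenesses rest on libraries that share groups and depth.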

How the data were processed

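RNA came from plantaris tendons, purified by column with DNase per the labels' protocols. The authors deposited raw counts per gene, after FastQC and STAR with mm10 per the submitters' processing notes. Tool versions, counter, annotation and strandedness were not given in the sources used here. The authors' own edgeR table was not used here. The 20 libraries were grouped by title. In R 4.3.3, edgeR 4.0.16 kept 18918 genes (filterByExpr), scaled by TMM, and fitted 1 robust quasi-likelihood model with a mean per group; p-values were Benjamini-Hochberg adjusted over all genes and called below 0.05. The code was tested on simulated data. Coordinates are from GENCODE vM21 (GRCm38, also named mm10), promoters from RefSeq (GRCm38.p6). Members and lists were chosen with earlier results of these data known. All members were named, and of each list up to 3 genes per direction with the smallest p among those called. The 3 genes most like each member were sought (prior count 2 on the log scale). All 3 are printed for Psat1, Asns, Sesn2 and Atf5, only the nearest for Ddit4 and Chac1, and none for the other members.

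Alternatives were RLE scaling, no filter, a filter of 1 CPM in 4 libraries, DESeq2 1.42.0, limma-voom (limma 3.58.1), the compared groups alone, a replicate block, a muscle score covariate, and leaving out each library. No libraries within a group were duplicates (smallest chi-square per degree of freedom 15.6).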

Additional observations from a re-analysis of the deposited data

Results flagged for a closer look

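Atf5 in KO day 14 had 1 library far from the others. Replicate 4 had 65.6 CPM and the other 3 libraries 90.7 to 94 CPM, so the gap made up 0.881 of the range. It was the only such case among 50 member and group combinations, where chance alone flags about 1 in 20. Replicate 4 also had the highest muscle fibre marker sum of its group, 28000 CPM, and the part of that sum in the Atf5 value was not tested. Without it, Atf5 passed at day 14 between KO and WT (log2 difference 0.47, edgeR adjusted p = 0.0431).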

How the results depend on the processing

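No member call changed direction under any alternative. Of 1520 member values, 1434 had the same outcome as in the main fit, which counts values called in both fits and values called in neither. A call was lost in 30 and gained in 19, and 37 changed sign without a call in either fit. From WT day 0 to WT day 7, the muscle score covariate left 4 members called instead of 8. The log2 changes of the members that lost their call were -0.63 for Ddit3 (-0.50 without the covariate), 1.73 for Ddit4 (1.10), 0.68 for Phgdh (0.68) and 0.47 for Sesn2 (0.59), and the cause of the losses was not tested. Between KO and WT at day 14, fitting only the compared groups left 0 instead of 1, and leaving out 1 library gave 1 to 3: 3 without WT day 14 replicate 4, which added Atf4 and Ddit3 as lower, and 2 without KO day 14 replicate 4, which added Atf5. Without that last library, 2 instead of 1 passed from KO day 7 to KO day 14, in a range of 1 to 2. The interaction had 1 member by DESeq2 instead of 0. Other ranges with 1 library left out were 8 to 8 (WT day 7 against day 0), 5 to 7 (WT day 14 against day 0), 5 to 6 (WT day 14 against day 7), 7 to 7 (KO day 7 against WT day 0), 5 to 6 (KO day 14 against WT day 0, 7 with all), 2 to 2 (KO against WT at day 7) and 0 to 0 (interaction).

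Of same-numbered pairs, 13 of 40 correlated above 0.1 (range -0.193 to 0.296, median 0.0465). In 27 of 80 cases a library correlated best with its own number among the 4 libraries of another group. These values cannot decide whether a replicate number stands for a shared batch or pairing. With the replicate number as a block, 8, 6, 6, 7, 6, 1, 2, 1 and 0 members were called in the comparisons as ordered in the fit (WT day 7 and 14 against day 0, WT day 14 against 7, KO day 7 and 14 against WT day 0, KO day 14 against 7, KO against WT at day 7 and 14, interaction). Trib3 gained a call in WT day 14 against day 0 and Chac1 lost one in KO day 14 against WT day 0. The member with the fewest counts was Chac1, with 102 in its lowest library, and counting error is largest there.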

Other observations

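Within WT day 14 the members split by library. Replicate 1 was highest for Atf4 (245 CPM), Ddit3 (22.3), Chac1 (7.94) and Asns (37.9). Replicate 4 was lowest for Atf4 (158), Ddit3 (13.8) and Asns (15.5), and highest for Atf5 (70), Ddit4 (78.1), Sesn2 (17.1) and Phgdh (11.2). Replicate 4 also had the highest tenocyte marker sum of the group, 144000 CPM against 57500 to 86500 in the others, and the highest muscle fibre sum, 24600 against 3030 to 14400.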
